A study of Homo sapiens with 9 samples.

Results

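This account covers 31 genes known as transcriptional targets of the tumour suppressor p53, read in A673 cells, a line that carries no functional p53. They are the rows of the count table whose symbol is on a list of 31 p53 targets, and all 31 were found among its 23368 symbols. The rule that picks the rows uses the symbol alone, but the list was chosen with earlier results of these data known. A673 is an established Ewing sarcoma cell line, and the study knocked down LRWD1, a partner of the origin recognition complex, which marks the sites where DNA replication begins.

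The 9 RNA-seq libraries form 3 groups of 3, namely cells given a scrambled siRNA, cells given siLRWD1-5 and cells given siLRWD1-6, the last 2 being different siRNAs against LRWD1. Every group was A673, transfected with 13 nM siRNA and harvested after 48 h, and grown in medium that held Zeocin and blasticidin S, so the scrambled cells shared all of this. Libraries carry the numbers 1 to 3 within each group, and the labels say that RNA came from 3 independent experiments. A673 is a single line, and no group with p53 restored or deleted was part of the comparison.

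The protein p53 is a transcription factor that is stabilised when DNA is damaged or the cell is stressed. It binds a response element made of a pair of similar 10-base units and turns on genes that stop the cell cycle, repair DNA or start apoptosis, and also genes such as MDM2 whose products switch p53 off again. Without functional p53 these genes are still transcribed, since most have other activators, among them the relatives p63 and p73 and the stress factor ATF4.

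The sites that p53 could read give a first view of the set. RefSeq promoter windows of the GRCh38.p14 build, from 250 bases before to 50 bases after a transcription start, were available for 25 of the 31 genes, and each was searched for the p53 response element consensus with at most 3 mismatches over its 20 letters and a spacer of at most 1 base. The consensus reads the same on both strands. A match was found for 9 of the 25 genes (36%), against 10.7% of the 9525 tested genes in the same table and 9.75% of all 35116 windows. The number of mismatches allowed was chosen after seeing these matches, so the excess is a description and no evidence of enrichment. These 9 are printed from 5′ to 3′ on the strand of the gene, to show which targets carry such a stretch next to a listed start. Letters that fit the consensus are in capitals, and mismatches and the spacer are in lower case.
MDM2: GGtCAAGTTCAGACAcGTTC
FAS: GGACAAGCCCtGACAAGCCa
AEN: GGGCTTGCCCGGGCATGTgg
DDB2: GAACAAGCCCtGGGCATGTTT
XPC: GAAtTTGCCCAGACAAGCaa
SESN1: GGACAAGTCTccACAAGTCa
FDXR: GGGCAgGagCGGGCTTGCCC
GDF15: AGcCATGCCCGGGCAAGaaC
RPS27L: GGcCTAGagCAGACAAGCCC

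On the plus strand these stretches lie at chr12:68808923-68808942 for MDM2, chr10:88991309-88991328 for FAS, chr15:88621306-88621325 for AEN, chr11:47214979-47214999 for DDB2 and chr19:18386186-18386205 for GDF15. On the minus strand they lie at chr3:14178570-14178589 for XPC, chr6:109009018-109009037 for SESN1, chr17:74872996-74873015 for FDXR and chr15:63157527-63157546 for RPS27L. The DDB2 stretch has 0 mismatches, which held for only 7 of all windows, and begins 6 bases after the start. Those of MDM2, FAS and AEN have 2 mismatches and begin 94, 122 and 34 bases before the start, and the other 5 have 3 mismatches. MDM2, FAS, SESN1, DDB2 and FDXR have more than 1 start in the table and so had more windows in which to match. Distances are from the start whose window had the fewest mismatches, which need not be the first start of the gene. A stretch before that start can therefore lie inside the gene as read from another start. A match describes letters and shows no binding, and elements outside these windows were not searched.

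Total counts per library ranged from 11971179 to 15674452, and the 31 genes held 0.219% to 0.286% of them. All 31 passed the filter on low counts that left 13648 genes. Levels are given as CPM, the count relative to a library total scaled by the TMM method, and differences as log2 fold changes with their standard error (SE). "Rose", "fell", "higher" and "lower" are used of differences past an adjusted p of 0.05, from the quasi-likelihood test of edgeR and the Benjamini-Hochberg method over all 13648 genes. LRWD1 was 49.1, 54.6 and 49.3 CPM in the scrambled libraries, 10.6, 11.3 and 10.4 with siLRWD1-5 and 6.55, 8.11 and 8.55 with siLRWD1-6, log2 differences of -2.24 (SE 0.10) and -2.72 (SE 0.11) from scrambled. Of the 8 Ewing sarcoma markers looked at, 7 were detected in every library, with CCND1 at 1494 to 2827 CPM and FLI1 at 47.5 to 87.8 CPM, whereas CD99 had counts in 1 library only. CD99 lies in the pseudoautosomal region, where 8 other genes, SLC25A6 of the mitochondrial carriers among them, had at most 3 counts in any library, so these zeros do not show that CD99 was absent. Of 13 markers of other cell types, KRT18 and ALPL alone passed the filter (ALPL rose with siLRWD1-6 by 0.51, edgeR adjusted p = 0.00633), MYOD1 and CD3E were at 0 in all 9 libraries, and the summed level of the list was 101 to 107 CPM in scrambled cells, 103 to 115 with siLRWD1-5 and 98.7 to 124 with siLRWD1-6. Nearly all of that sum was KRT18 and ALPL. In such bulk samples, fewer cells of a kind and less RNA per cell cannot be told apart.

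Scrambled replicate 2 stood apart from the other 2 scrambled libraries. Its chi-square per gene against them was 28.4 and 24.2, whereas every other pair within a group gave 2.98 to 5.45. Over the 31 genes its median absolute log2 difference from their mean was 0.39 (0.21 over all tested genes), while scrambled replicates 1 and 3 differed from each other by 0.09 (0.11 over all tested genes). It was above the other scrambled libraries by 1.32 on the log2 scale for CDKN1A, 0.98 for GADD45A, 0.94 for TNFRSF10A, 0.71 for PERP and 0.67 for TNFRSF10B, and it differed by -0.70 for DDB2, -0.63 for BBC3 and -0.56 for FDXR. In all, 10 of the 31 genes differed by more than 0.5 in that library, or 32.3%, against 18.7% of all tested genes. Results against scrambled are therefore given with and without it.

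The relatives p63 and p73 can read similar elements, and RNA of both was present in every library. TP63, the gene of p63, rose with siLRWD1-5, from 20.03, 17.1 and 18.2 CPM to 31.9, 30.1 and 33.3 CPM (0.78, SE 0.09, edgeR adjusted p = 4.51e-05), and was 20.4, 20.5 and 19.0 CPM with siLRWD1-6. TP73, the gene of p73, was 15.2, 6.08 and 12.6 CPM in scrambled cells, 11.2, 10.0 and 13.96 with siLRWD1-5 and 7.66, 7.16 and 7.20 with siLRWD1-6, and was not called in any comparison with all libraries. Its difference with siLRWD1-6 was -0.91 without scrambled replicate 2 (edgeR adjusted p = 7.48e-05). CDKN2A, whose product ARF blocks MDM2, had 0 counts in all 9 libraries, which allows at most 0.189 to 0.254 CPM per library as far as counting error goes.

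The p53 targets went both ways with siLRWD1-5, and most were not called with either siRNA. With siLRWD1-5, 9 of the 31 rose, 5 fell and 17 were not called, where 18.5% of all tested genes were higher and 20.3% lower. With siLRWD1-6, 7 rose, 1 fell and 23 were not called, against a background of 8.81% higher and 7.78% lower. In both directions together, 45.2% were called with siLRWD1-5 and 25.8% with siLRWD1-6, beside 38.8% and 16.6% of all tested genes. The median log2 change over the 31 was 0.03 with siLRWD1-5 and -0.003 with siLRWD1-6, and over all tested genes it was -0.01 and -0.02. Their median absolute log2 change was 0.38 and 0.24, beside 0.26 and 0.17 over all tested genes. Both comparisons use the same 3 scrambled libraries.

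**Figure D1:**
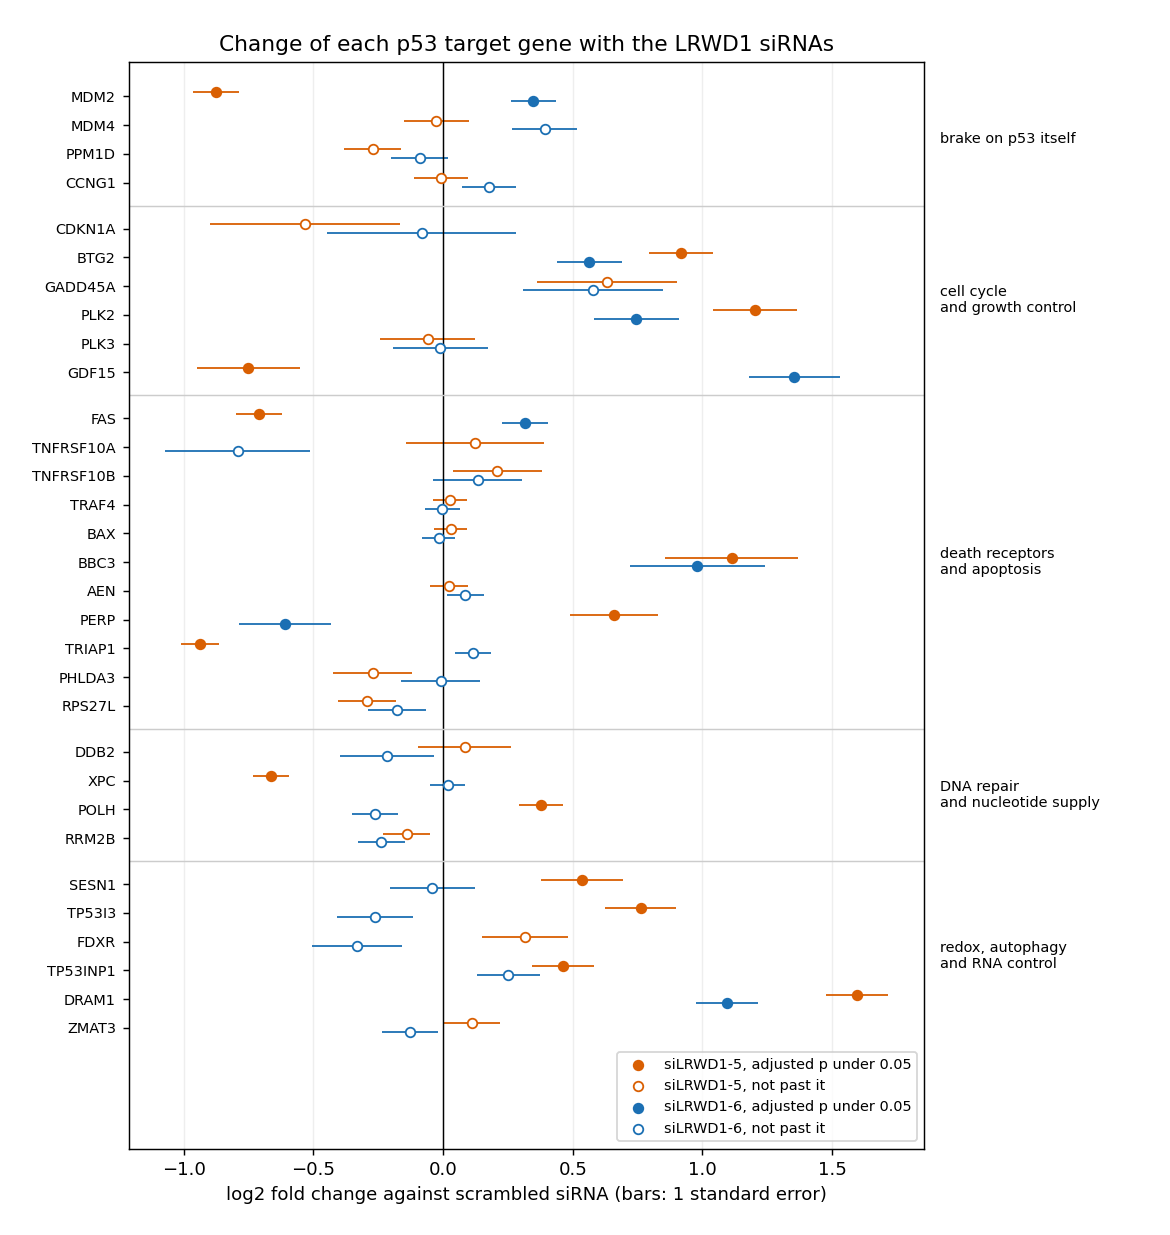
Log2 fold change of each of the 31 p53 targets against scrambled siRNA (horizontal axis), with siLRWD1-5 in orange, siLRWD1-6 in blue, bars of 1 standard error and filled points past an adjusted p of 0.05, grouped by role. Points lie on both sides of 0 in every group of more than 4 genes with siLRWD1-6, while all 6 genes of redox, autophagy and RNA control lie right of 0 with siLRWD1-5.

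Set directly against each other, the siRNAs differed in 48.4% of the 31 genes, close to the 43.4% of all tested genes. Of the 31, 6 were higher with siLRWD1-6 than with siLRWD1-5 and 9 were lower, while 22.4% of all tested genes were higher and 20.9% lower. The differences over 2-fold were those of GDF15, PERP, MDM2, TRIAP1, FAS and TP53I3. The spread in this fit is pooled with the scrambled libraries. With only the siRNA groups fitted, 8 members were higher and 11 lower, beside 28.2% and 27.2% of all genes then tested. That fit added CCNG1 and PHLDA3 (0.27, edgeR adjusted p = 0.0212) as higher. It added ZMAT3 and DDB2 (-0.30, edgeR adjusted p = 0.0157) as lower. The split over all genes depended on the scaling, being 3063 higher and 2856 lower with TMM and 2478 higher and 3609 lower with no scaling beyond library size. For siLRWD1-5 against scrambled it was 2527 and 2765 with TMM and 3101 and 2320 without scaling, while no count of members called moved by over 1.5 times with the scaling.

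Leaving out scrambled replicate 2 added calls and removed none. With siLRWD1-5 the counts became 13 higher and 7 lower, beside 24% and 25% of all genes then tested, and with siLRWD1-6 they became 10 higher and 4 lower, beside 15.3% and 13.3%. The medians over the 31 became 0.06 and 0.13. Calls with siLRWD1-6 also rested on siLRWD1-6 replicate 1, without which 3 members were higher and 0 lower, and the shares of all tested genes were 5.08% and 3.95%. Against scrambled replicates 1 and 3 alone, GADD45A and TNFRSF10B were higher with either siRNA.

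**Figure D2:**
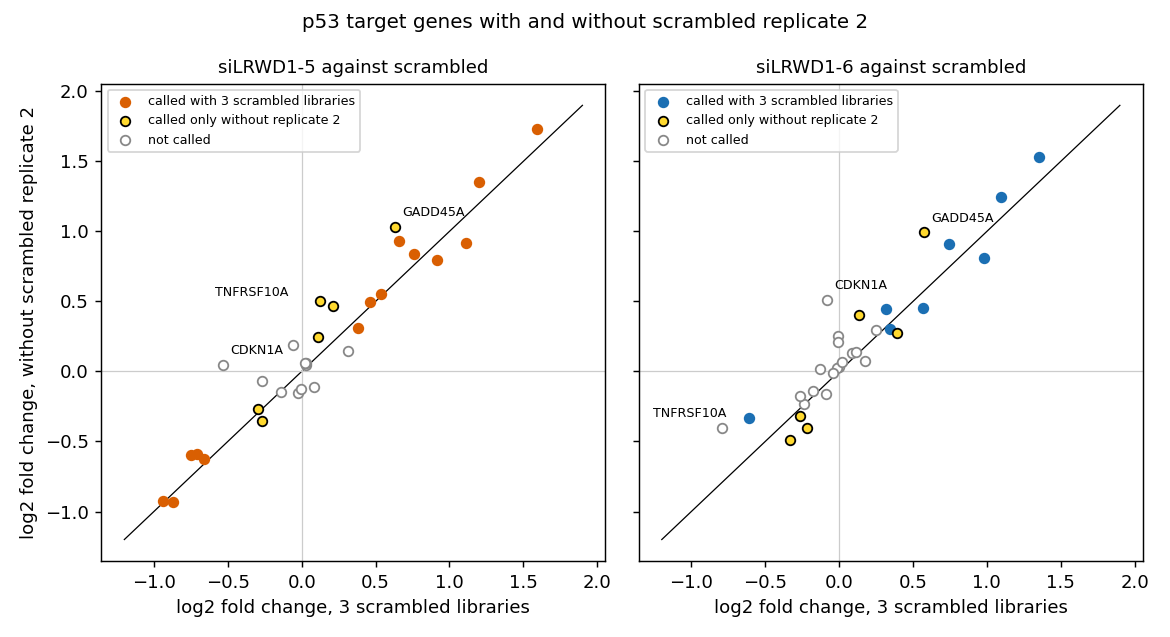
Log2 fold change of each p53 target with all 3 scrambled libraries (horizontal axis) and without scrambled replicate 2 (vertical axis), for siLRWD1-5 on the left and siLRWD1-6 on the right, with a line of equality. Yellow points are genes called only without that library, and CDKN1A lies farthest above the line, at -0.53 and 0.05 with siLRWD1-5 and at -0.08 and 0.51 with siLRWD1-6.

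Levels per length ranged widely over the set. In scrambled cells, in CPM per kb of annotated exon, CDKN1A stood at 165 ± 95.5 (SD, n = 3), TNFRSF10B at 121 ± 34.7, CCNG1 at 102 ± 15.0 and FAS at 85.4 ± 12.02. The spread of these 4 overlapped between neighbours in that order. The order rests in part on scrambled replicate 2, which had 691 CPM of CDKN1A, against 275 and 277 in the other scrambled libraries. For TNFRSF10B it had 668 CPM against 404 and 436, and for CCNG1 209 against 272 and 275. At the other end were BBC3 at 1.09 ± 0.307, TP53INP1 at 1.36 ± 0.0639 and SESN1 at 1.48 ± 0.0396 CPM per kb.

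**Figure D3:**
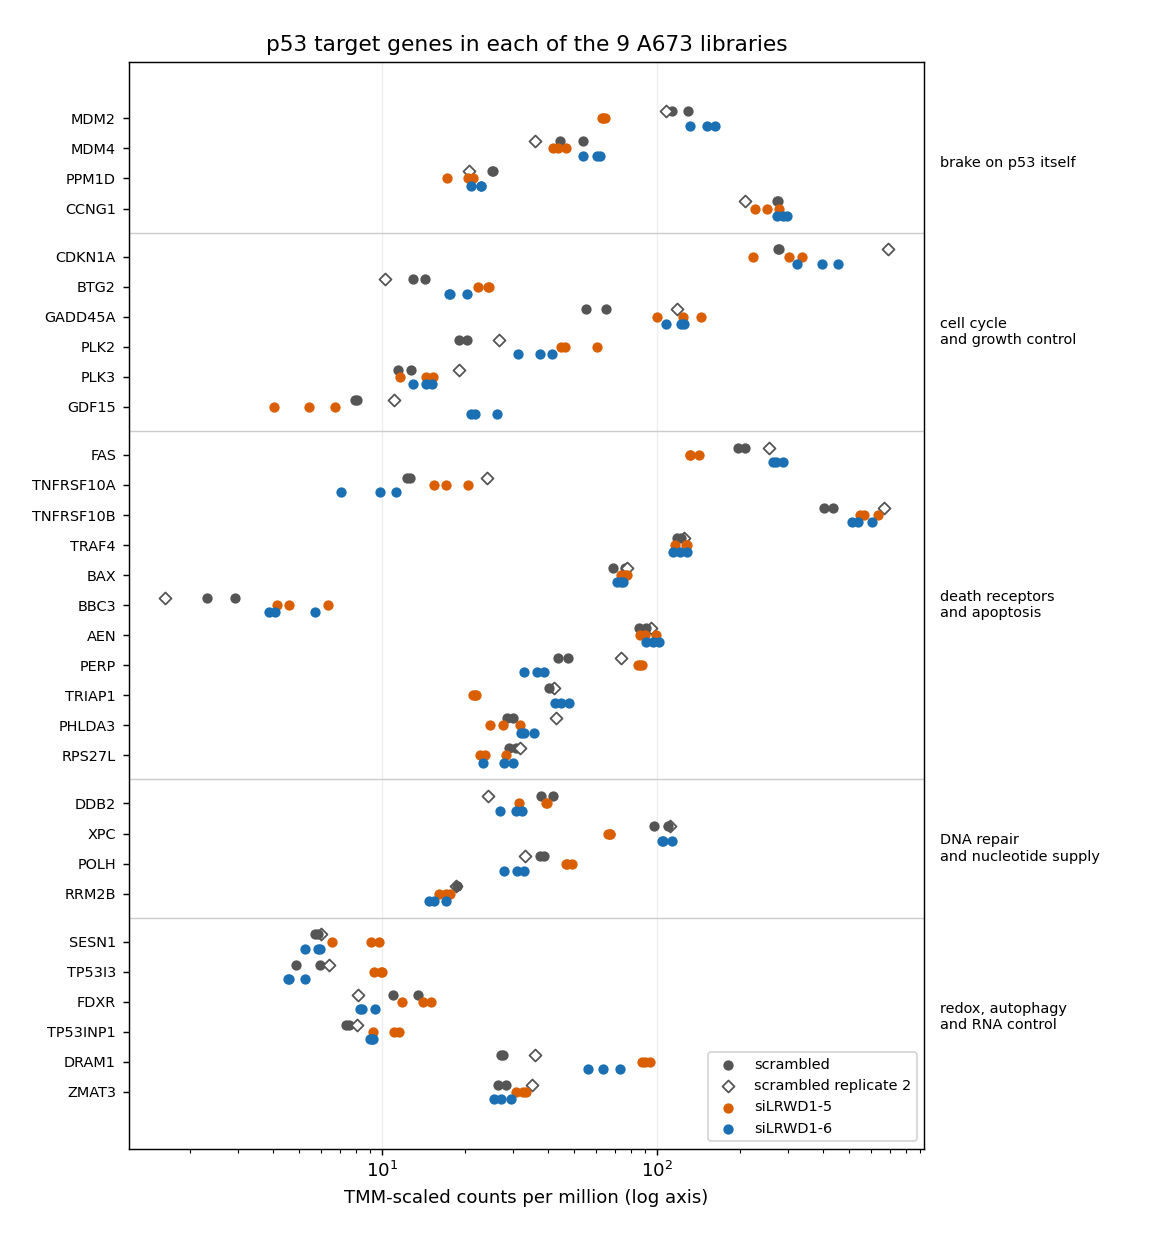
TMM-scaled CPM of each p53 target in each of the 9 libraries (log axis), grouped by role, with scrambled in grey, siLRWD1-5 in orange and siLRWD1-6 in blue. The open diamond is scrambled replicate 2, which lies right of the grey points for CDKN1A, GADD45A, TNFRSF10A, PERP and TNFRSF10B and left of them for DDB2, BBC3 and FDXR.

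Among the genes whose products act back on p53, MDM2 moved in opposite directions with the siRNAs. MDM2 encodes the ubiquitin ligase that marks p53 for degradation. It was 113, 108 and 129.8 CPM in scrambled cells, 63.2, 63.3 and 64.8 with siLRWD1-5 and 152, 162 and 132 with siLRWD1-6. The 3 groups did not overlap, and siLRWD1-5 gave the lowest and most even values. MDM2 fell by 0.87 with siLRWD1-5 (SE 0.09, edgeR adjusted p = 2.08e-05) and rose by 0.35 with siLRWD1-6 (SE 0.09, edgeR adjusted p = 0.0182). It was 2.33-fold higher with siLRWD1-6 than with siLRWD1-5 (log2 1.22, SE 0.09, edgeR adjusted p = 1.36e-06). The rise with siLRWD1-6 was not called without scrambled replicate 1 (0.32, edgeR adjusted p = 0.0583), siLRWD1-6 replicate 1 (0.33, adjusted p = 0.0753) or siLRWD1-6 replicate 2 (0.28, adjusted p = 0.0859), nor in a fit of only the scrambled and siLRWD1-6 libraries (0.36, adjusted p = 0.0516).

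MDM4, a p53 inhibitor related to MDM2, was 44.5, 35.9 and 53.7 CPM in scrambled cells, 46.5, 43.6 and 41.6 with siLRWD1-5 and 53.5, 62.1 and 60.4 with siLRWD1-6. The siLRWD1-6 libraries overlapped the scrambled ones narrowly and lay above all siLRWD1-5 ones. Its difference with siLRWD1-6 was 0.39 against scrambled (SE 0.12, edgeR adjusted p = 0.0539) and was called without scrambled replicate 2 (0.27, adjusted p = 0.0237) or scrambled replicate 3 (0.54, adjusted p = 0.00916). It was also called with no filter on low counts (0.40, adjusted p = 0.0442), DESeq2 (0.40, adjusted p = 0.0258) and limma-voom (0.40, adjusted p = 0.0469). Against siLRWD1-5 it was higher by 0.42 (SE 0.12, edgeR adjusted p = 0.0189). That call was lost without siLRWD1-5 replicate 2 (0.41, adjusted p = 0.0535) or 3 (0.38, adjusted p = 0.0706) and without siLRWD1-6 replicate 2 (0.38, adjusted p = 0.0690) or 3 (0.41, adjusted p = 0.0583), and with no scaling beyond library size (0.35, adjusted p = 0.0565). PPM1D, the phosphatase WIP1 that removes activating phosphates from p53, was 20.7 to 25.4 CPM in scrambled cells and 17.2 to 21.4 with siLRWD1-5, a difference of -0.27 (SE 0.11, edgeR adjusted p = 0.0718). Blocking on the replicate number made the call (-0.27, adjusted p = 0.0477), as did leaving out scrambled replicate 2 (-0.36, adjusted p = 0.00631). CCNG1, cyclin G1, ranged from 209 to 295 CPM over the 9 libraries and was not called in the fit of all of them. With only the siRNA groups fitted, it was called higher with siLRWD1-6 than with siLRWD1-5 (0.18, adjusted p = 0.0236).

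The cell cycle and growth control genes held the strongest contrast between the siRNAs. GDF15, a secreted cytokine of the TGF-beta superfamily that rises under many stresses, was 8.09, 11.02 and 7.95 CPM in scrambled cells. It was 4.03, 5.41 and 6.74 CPM with siLRWD1-5 and 26.2, 21.7 and 21.0 with siLRWD1-6. No 2 of the groups overlapped. GDF15 fell by 0.75 with siLRWD1-5 (SE 0.20, edgeR adjusted p = 0.0112), a call lost without siLRWD1-5 replicate 1 (-0.57, adjusted p = 0.0512). It rose by 1.36 with siLRWD1-6 (SE 0.18, edgeR adjusted p = 0.000448), and between the siRNAs it differed 4.30-fold (log2 2.11, SE 0.19, edgeR adjusted p = 6.18e-06).

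PLK2 and BTG2 rose with both siRNAs. PLK2, a polo-like kinase linked to centriole duplication and stress checkpoints, was 19.0, 26.5 and 20.4 CPM in scrambled cells, 44.8, 60.4 and 46.1 with siLRWD1-5 and 31.1, 37.6 and 41.6 with siLRWD1-6. It was 2.30-fold higher with siLRWD1-5 (log2 1.20, SE 0.16, edgeR adjusted p = 0.000237) and 1.68-fold higher with siLRWD1-6 (log2 0.75, SE 0.16, edgeR adjusted p = 0.0114). BTG2, an antiproliferative adaptor of the mRNA deadenylase complex, was 14.3, 10.2 and 13.0 CPM in scrambled cells, 24.2, 24.5 and 22.2 with siLRWD1-5 and 20.3, 17.5 and 17.7 with siLRWD1-6. It was 1.89-fold higher with siLRWD1-5 (log2 0.92, SE 0.12, edgeR adjusted p = 0.000159) and 1.48-fold higher with siLRWD1-6 (log2 0.56, SE 0.12, edgeR adjusted p = 0.0103), the latter not called without siLRWD1-6 replicate 1 (0.49, adjusted p = 0.0556). For both genes every siLRWD1-5 library lay above every siLRWD1-6 library, and every siLRWD1-6 library above every scrambled one. The differences between the siRNAs were called at -0.46 for PLK2 (SE 0.16, edgeR adjusted p = 0.0361) and -0.35 for BTG2 (SE 0.12, edgeR adjusted p = 0.0333). They were not called for PLK2 without siLRWD1-5 replicate 2 (-0.30), siLRWD1-6 replicate 1 (-0.35) or siLRWD1-6 replicate 2 (-0.47), nor for BTG2 without siLRWD1-5 replicate 1 (-0.33) or 2 (-0.32) or siLRWD1-6 replicate 2 (-0.31) or 3 (-0.31).

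CDKN1A encodes p21, the inhibitor of cyclin-dependent kinases through which p53 halts the cell cycle, and it was among the most abundant of the 31. It was 275, 691 and 277 CPM in scrambled cells, 224, 335 and 300.5 with siLRWD1-5 and 322, 453 and 399 with siLRWD1-6. In each group the library numbered 2 was the highest, and scrambled replicate 2 exceeded all 8 others. With all libraries the differences were -0.53 with siLRWD1-5 (SE 0.37, edgeR adjusted p = 0.288) and -0.08 with siLRWD1-6 (SE 0.36, edgeR adjusted p = 0.909). Without scrambled replicate 2 they were 0.05 (SE 0.21, adjusted p = 0.872) and 0.51 (SE 0.22, adjusted p = 0.146), so the sign turned with that library and no call was made either way.

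GADD45A, a stress sensor that binds PCNA and p21, was 54.9, 118 and 64.9 CPM in scrambled cells, 100.2, 144 and 124 with siLRWD1-5 and 108, 125 and 122 with siLRWD1-6. Scrambled replicate 2 sat among the siRNA libraries, and the other 2 scrambled libraries below all of them. The differences were 0.63 (SE 0.27, edgeR adjusted p = 0.101) and 0.58 (SE 0.27, edgeR adjusted p = 0.195). Without scrambled replicate 2 GADD45A was 2.05-fold higher with siLRWD1-5 (log2 1.03, adjusted p = 0.00147) and 1.99-fold higher with siLRWD1-6 (log2 0.99, adjusted p = 0.00378). Blocking on the replicate number, it was also called with siLRWD1-5 (0.67, adjusted p = 0.0145). PLK3, a kinase of the same family as PLK2, ranged from 11.4 to 19.0 CPM over the 9 libraries and was not called in any comparison.

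**Figure D4:**
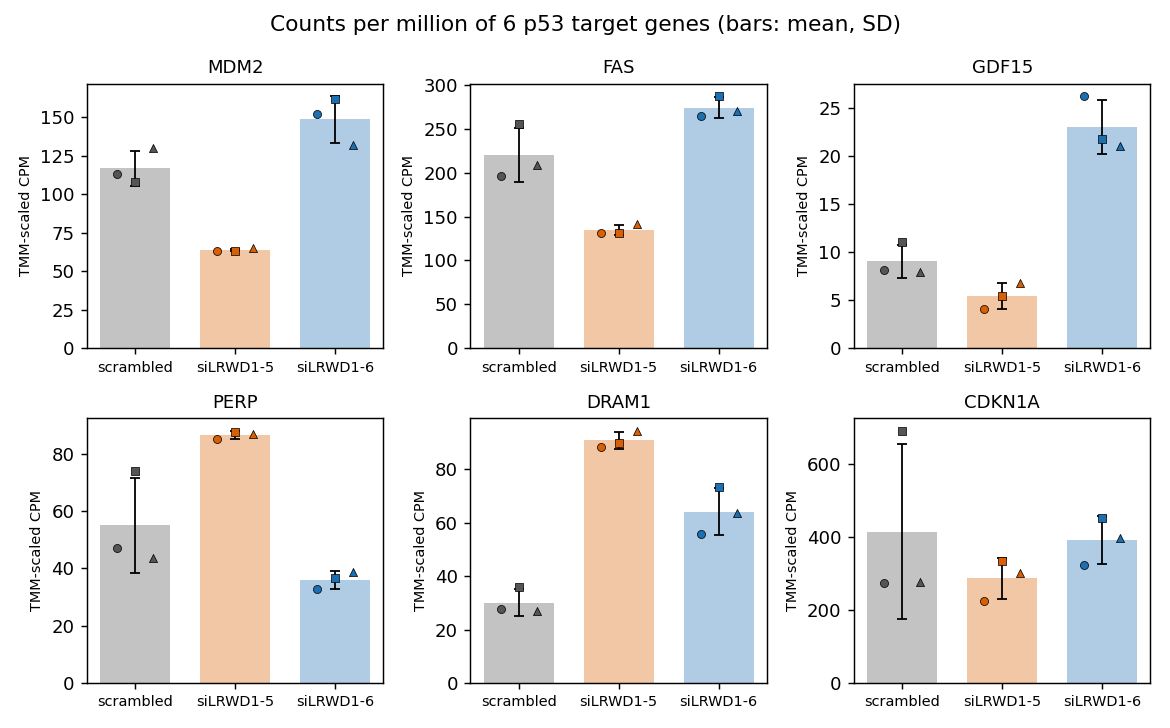
TMM-scaled CPM of 6 p53 targets by group, with bars at the mean, error bars of 1 SD and points for the libraries (circle, square and triangle for replicates 1, 2 and 3; n = 3). MDM2, FAS and GDF15 were lowest with siLRWD1-5 and highest with siLRWD1-6, PERP the reverse, DRAM1 was above scrambled with both, and the CDKN1A bar of scrambled cells rests on 1 library at 691.

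The death receptors and apoptosis genes went different ways. FAS, the receptor for FAS ligand, was 197, 256 and 209 CPM in scrambled cells, 131, 131 and 142 with siLRWD1-5 and 265, 287 and 270.5 with siLRWD1-6. The 3 groups did not overlap, although the siLRWD1-6 values began close above scrambled replicate 2. FAS fell by 0.71 with siLRWD1-5 (SE 0.09, edgeR adjusted p = 0.000103), and it was 2.04-fold higher with siLRWD1-6 than with siLRWD1-5 (log2 1.03, SE 0.09, edgeR adjusted p = 5.53e-06). Its rise of 0.32 with siLRWD1-6 (SE 0.09, edgeR adjusted p = 0.0319) was the less firm. Without scrambled replicate 2 that rise was 0.45 (adjusted p = 8.06e-06), but it was not called without scrambled replicate 1 (0.24, adjusted p = 0.104) or 3 (0.28, adjusted p = 0.0924), nor without siLRWD1-6 replicate 1 (0.34, adjusted p = 0.0718), 2 (0.28, adjusted p = 0.119) or 3 (0.34, adjusted p = 0.0606), nor in a fit of only those 2 groups (0.32, adjusted p = 0.0729).

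The receptors for TRAIL, TNFRSF10A and TNFRSF10B, were read against a scrambled group that was itself spread. TNFRSF10A was 12.6, 24.1 and 12.3 CPM in scrambled cells, 15.4, 20.5 and 17.1 with siLRWD1-5 and 7.11, 11.3 and 9.82 with siLRWD1-6. All siLRWD1-6 libraries lay below all others. Its difference with siLRWD1-6 was -0.79 (SE 0.28, edgeR adjusted p = 0.0887), and -0.40 without scrambled replicate 2 (adjusted p = 0.0755). It was called lower with DESeq2 (-0.79, adjusted p = 0.0198) and with only the libraries numbered 1 and 3 (-0.56, adjusted p = 0.00800). Against siLRWD1-5 it was lower by 0.91 on the log2 scale (-0.91, SE 0.28, edgeR adjusted p = 0.0251), a call lost without siLRWD1-5 replicate 2 (-0.79) or 3 (-0.94) and without siLRWD1-6 replicate 1 (-0.74) or 3 (-0.93). Its difference with siLRWD1-5 was 0.12 (edgeR adjusted p = 0.748), and without scrambled replicate 2 it was called higher (0.50, adjusted p = 0.0112). TNFRSF10B was 404, 668 and 436 CPM in scrambled cells and 512 to 634 over the siRNA libraries, which lay inside the scrambled range; scrambled replicate 2 was the highest of the 9. With scrambled replicate 2 left out, it was higher by 0.47 with siLRWD1-5 (adjusted p = 3.99e-05) and by 0.40 with siLRWD1-6 (adjusted p = 0.000422).

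Of the genes inside the mitochondrial death pathway, BBC3 rose with both siRNAs from a low level and BAX stayed within a narrow range. BBC3 encodes PUMA, a BH3-only activator of apoptosis. It was 2.91, 1.62 and 2.31 CPM in scrambled cells, 4.60, 4.15 and 6.33 with siLRWD1-5 and 5.71, 3.87 and 4.06 with siLRWD1-6. Every siRNA library lay above every scrambled one, and the siRNA groups overlapped each other. BBC3 was 2.16-fold higher with siLRWD1-5 (log2 1.11, SE 0.26, edgeR adjusted p = 0.0055) and 1.97-fold higher with siLRWD1-6 (log2 0.98, SE 0.26, edgeR adjusted p = 0.0248). The call with siLRWD1-6 was lost without scrambled replicate 3 (0.98, adjusted p = 0.0597) or siLRWD1-6 replicate 1 (0.78, adjusted p = 0.117). BAX, the pore-forming member of the BCL2 family, was 69.1 to 77.6 CPM in scrambled cells, 74.1 to 77.8 with siLRWD1-5 and 71.7 to 75.4 with siLRWD1-6, with differences of 0.03 (SE 0.06) and -0.02 (SE 0.06).

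PERP and TRIAP1 were the other apoptosis genes with large differences. PERP, a membrane protein of desmosomes that also promotes apoptosis, was 47.3, 74.1 and 43.5 CPM in scrambled cells, 85.2, 87.8 and 86.9 with siLRWD1-5 and 32.7, 36.5 and 38.8 with siLRWD1-6. No 2 of the groups overlapped, and the direction was the opposite of that of MDM2, FAS and GDF15. PERP rose by 0.66 with siLRWD1-5 (SE 0.17, edgeR adjusted p = 0.0134) and by 0.93 without scrambled replicate 2. It fell by 0.61 with siLRWD1-6 (SE 0.18, edgeR adjusted p = 0.0445) and by 0.33 without scrambled replicate 2 (adjusted p = 0.00346). That fall was not called without siLRWD1-6 replicate 1 (-0.54, adjusted p = 0.148), 2 (-0.62, adjusted p = 0.112) or 3 (-0.65, adjusted p = 0.0862), with no filter on low counts (-0.60, adjusted p = 0.0871) or in a fit of only those 2 groups (-0.60, adjusted p = 0.104). Between the siRNAs PERP differed 2.41-fold, lower with siLRWD1-6 (log2 -1.27, SE 0.18, edgeR adjusted p = 0.000344).

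TRIAP1, a small mitochondrial protein that restrains apoptosis, was 41.8, 42.1 and 40.3 CPM in scrambled cells, 21.9, 21.3 and 21.7 with siLRWD1-5 and 42.4, 44.6 and 47.7 with siLRWD1-6. The siLRWD1-5 values were close to one another and far below all others. TRIAP1 was 1.91-fold lower with siLRWD1-5 (log2 -0.94, SE 0.07, edgeR adjusted p = 3.07e-06). It differed by 0.11 with siLRWD1-6 (SE 0.07, edgeR adjusted p = 0.301) and was 2.07-fold higher with siLRWD1-6 than with siLRWD1-5 (edgeR adjusted p = 1e-06). The remaining 4 genes of this role were not called in the fit of all libraries by group. TRAF4, a signalling adaptor, ranged from 114 to 129 CPM and AEN, an apoptosis-linked nuclease, from 85.5 to 101 CPM. PHLDA3, an inhibitor of AKT, was 28.5 to 43.0 CPM in scrambled cells, 24.7 to 31.8 with siLRWD1-5 and 31.9 to 35.7 with siLRWD1-6. RPS27L, a ribosomal protein paralog, was 30.8, 31.6 and 29.01 CPM in scrambled cells and 28.2, 23.6 and 22.7 with siLRWD1-5, a difference of -0.29 (SE 0.11, edgeR adjusted p = 0.0567). RPS27L resembles RPS27, so its reads could be shared between the copies. It was called lower when blocking on the replicate number (-0.30, adjusted p = 0.0187), without scrambled replicate 2 (-0.27, adjusted p = 0.0492) and without siLRWD1-5 replicate 1 (-0.40, adjusted p = 0.0266).

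Of the 4 DNA repair and nucleotide supply genes, XPC fell and POLH rose with siLRWD1-5, beside 20.3% and 18.5% of all tested genes. With siLRWD1-6, 0 of the 4 were called, where 8.81% of all tested genes were higher and 7.78% lower. XPC, the damage sensor that starts nucleotide excision repair, was 97.1, 111 and 109.9 CPM in scrambled cells, 67.1, 67.4 and 66.5 with siLRWD1-5 and 104, 113 and 105 with siLRWD1-6. The siLRWD1-5 libraries lay below all others, and the other groups overlapped. XPC was 1.58-fold lower with siLRWD1-5 (log2 -0.66, SE 0.07, edgeR adjusted p = 2.54e-05) and was higher with siLRWD1-6 than with siLRWD1-5 by 0.68 (SE 0.07, edgeR adjusted p = 1.61e-05). POLH, the polymerase that copies past ultraviolet lesions, was 38.8, 33.1 and 37.6 CPM in scrambled cells, 48.9, 47.0 and 46.5 with siLRWD1-5 and 27.7, 30.98 and 32.8 with siLRWD1-6. Its groups did not overlap. POLH rose by 0.38 with siLRWD1-5 (SE 0.09, edgeR adjusted p = 0.00454) and differed by -0.26 with siLRWD1-6 (SE 0.09, edgeR adjusted p = 0.0621), or -0.32 without scrambled replicate 2 (adjusted p = 0.00633). Between the siRNAs the difference was -0.64 (SE 0.09, edgeR adjusted p = 0.000127).

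DDB2, the gene with the fully matching promoter element, was 41.6, 24.3 and 37.9 CPM in scrambled cells, 39.3, 31.3 and 39.8 with siLRWD1-5 and 30.7, 26.8 and 32.3 with siLRWD1-6. Its product recognises ultraviolet damage in chromatin. The library numbered 2 was the lowest in each group, and the groups overlapped. The differences were 0.08 and -0.22 (edgeR adjusted p = 0.743 and 0.470), and without scrambled replicate 2 DDB2 was called lower with siLRWD1-6 (-0.40, adjusted p = 0.00564). RRM2B, the p53-inducible subunit of ribonucleotide reductase, was 18.6 to 18.7 CPM in scrambled cells, 16.1 to 17.7 with siLRWD1-5 and 14.8 to 17.1 with siLRWD1-6. Both siRNA groups lay below scrambled, with differences of -0.14 (SE 0.09, edgeR adjusted p = 0.243) and -0.24 (SE 0.09, edgeR adjusted p = 0.0986), which were not called.

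The redox, autophagy and RNA control genes had 4 of 6 members higher with siLRWD1-5 and 0 lower, beside 18.5% and 20.3% of all tested genes. With siLRWD1-6, 1 of 6 was higher and 0 lower, beside 8.81% and 7.78%. DRAM1, a lysosomal membrane protein that promotes autophagy, had the largest rise of the 31 with siLRWD1-5. It was 27.6, 35.8 and 26.9 CPM in scrambled cells, 88.3, 89.9 and 94.4 with siLRWD1-5 and 55.9, 73.3 and 63.5 with siLRWD1-6. All 3 groups were separate. DRAM1 was 3.02-fold higher with siLRWD1-5 (log2 1.60, SE 0.12, edgeR adjusted p = 2.96e-06) and 2.14-fold higher with siLRWD1-6 (log2 1.09, SE 0.12, edgeR adjusted p = 0.000162), and it was lower with siLRWD1-6 than with siLRWD1-5 (log2 -0.50, SE 0.12, edgeR adjusted p = 0.0046).

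The other members of this role that rose with siLRWD1-5 were expressed at low levels. TP53I3, a quinone oxidoreductase, was 5.94, 6.40 and 4.86 CPM in scrambled cells, 9.33, 10.0 and 9.90 with siLRWD1-5 and 4.60, 4.53 and 5.25 with siLRWD1-6. The siLRWD1-5 libraries stood above all others, and the other groups overlapped. It was 1.70-fold higher with siLRWD1-5 (log2 0.76, SE 0.14, edgeR adjusted p = 0.00118), and lower with siLRWD1-6 than with siLRWD1-5 by a log2 difference of -1.02 (SE 0.14, edgeR adjusted p = 0.000147). TP53INP1, a stress protein that links p53 to autophagy, was 7.58, 8.10 and 7.41 CPM in scrambled cells, 11.03, 9.26 and 11.5 with siLRWD1-5 and 9.20, 9.06 and 9.23 with siLRWD1-6. Both siRNA groups lay above scrambled, with a rise of 0.46 for siLRWD1-5 (SE 0.12, edgeR adjusted p = 0.0101) and a difference of 0.25 for siLRWD1-6 (SE 0.12, edgeR adjusted p = 0.188).

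SESN1, a sestrin that restrains mTORC1, was 5.69, 6.00 and 5.86 CPM in scrambled cells, 9.70, 6.59 and 9.09 with siLRWD1-5 and 5.92, 5.84 and 5.25 with siLRWD1-6. Its siLRWD1-5 group was spread, with replicate 2 close to the scrambled libraries. SESN1 rose by 0.54 with siLRWD1-5 (SE 0.16, edgeR adjusted p = 0.0194), and the call was lost without scrambled replicate 1 (0.51, adjusted p = 0.0559) or 3 (0.54, adjusted p = 0.0509) and without siLRWD1-5 replicate 1 (0.42, adjusted p = 0.0929) or 3 (0.48, adjusted p = 0.0687). Between the siRNAs it differed by -0.58 (SE 0.16, edgeR adjusted p = 0.0123), which was not called without siLRWD1-5 replicate 1 (-0.46) or siLRWD1-6 replicate 3 (-0.51). FDXR, a mitochondrial ferredoxin reductase, was 13.5, 8.19 and 10.96 CPM in scrambled cells, 15.0, 11.9 and 14.04 with siLRWD1-5 and 8.43, 8.33 and 9.40 with siLRWD1-6. The siRNA groups did not overlap each other and both overlapped scrambled. FDXR was lower with siLRWD1-6 than with siLRWD1-5 (log2 -0.65, SE 0.17, edgeR adjusted p = 0.00951). Against scrambled it differed by 0.32 with siLRWD1-5 (edgeR adjusted p = 0.156), called without scrambled replicate 1 (0.51, adjusted p = 0.0317), and by -0.33 with siLRWD1-6 (edgeR adjusted p = 0.223), called without scrambled replicate 2 (-0.49, adjusted p = 0.0123). ZMAT3, an RNA-binding regulator of splicing, was 25.6 to 35.1 CPM over the 9 libraries. It was not called in the fit of all libraries. With siLRWD1-5 it was called higher without scrambled replicate 2 (0.24, adjusted p = 0.0274) and with only the libraries numbered 1 and 3 (0.29, adjusted p = 0.0152). Between the siRNAs it was called lower with siLRWD1-6 with no scaling (-0.31, adjusted p = 0.0266) and with only those 2 groups fitted (-0.24, adjusted p = 0.0170).

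The promoter matches did not go with a common direction. Of the 9 members with a match, 1 rose, 4 fell and 4 were not called with siLRWD1-5, and of the 16 with a promoter window but no match, 7 rose, 1 fell and 8 were not called. Over all tested genes in the promoter table, 16.4% of those with a match were higher with siLRWD1-5 and 23.3% lower, beside 19.6% and 20.6% of those without. With siLRWD1-6, 3 of the 9 rose, 0 fell and 6 were not called, and of the 16 without a match 4 rose and 1 fell. Over all genes those shares were 8.62% and 9.60% with a match and 9.57% and 7.89% without. MDM2, FAS and GDF15, which carry a match, fell with siLRWD1-5 and rose with siLRWD1-6. DRAM1, PLK2, BTG2 and BBC3 have no match in their windows, which says only that these letters were not found there.

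Other genes of the pathway gave further context. The list of regulators was chosen with earlier results of these data known, so its shares are a description. Of 30 regulators of p53, 29 were tested, and 5 rose and 10 fell with siLRWD1-5 (17.2% and 34.5%, beside 18.5% and 20.3% of all tested genes). SETD8, a histone and p53 methyltransferase, fell by 1.54 on the log2 scale (SE 0.08, edgeR adjusted p = 1.35e-07), from 60.2 to 67.7 CPM in scrambled cells to 20.3 to 23.4 CPM. CHEK1, the checkpoint kinase, fell by 0.91 (SE 0.11, edgeR adjusted p = 9.51e-05), and TP53BP2, the p53 cofactor ASPP2, fell by 0.81 (SE 0.08, edgeR adjusted p = 1.82e-05). With siLRWD1-6, 1 regulator rose and 2 fell (3.45% and 6.90%, beside 8.81% and 7.78%). SETD7, another p53 methyltransferase, rose by 0.75 (SE 0.17, edgeR adjusted p = 0.0175), while TP53BP2 fell by 0.30 and PPP1R13B, the cofactor ASPP1, fell by 0.51 (edgeR adjusted p = 0.0231 and 0.0468). Directly compared, 11 regulators were higher and 5 lower with siLRWD1-6 than with siLRWD1-5 (37.9% and 17.2%, beside 22.4% and 20.9%). The counts without scrambled replicate 2 were 6 higher and 12 lower with siLRWD1-5, beside 24% and 25% of all genes then tested. With siLRWD1-6 they were 2 and 5, beside 15.3% and 13.3%, and the rise of SETD7 was then 1.03 (edgeR adjusted p = 2.58e-10).

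A second list of 50 further p53 targets had 44 tested genes, of which 12 rose and 4 fell with siLRWD1-5 (27.3% and 9.09%, beside 18.5% and 20.3% of all tested genes). With siLRWD1-6, 7 rose and 3 fell (15.9% and 6.82%, beside 8.81% and 7.78%). Their median log2 change was 0.08 with siLRWD1-5 and 0.001 with siLRWD1-6. This list too was chosen with earlier results of these data known. With siLRWD1-5, ISCU, an iron-sulfur cluster scaffold, fell by 1.10 (SE 0.11, edgeR adjusted p = 1.7e-05), and IKBIP, PLXNB2 and FUCA1 rose by 0.67, 0.42 and 0.78. With siLRWD1-6, ATF3, a stress-induced transcription factor, rose by 0.95 (SE 0.08, edgeR adjusted p = 1.85e-05), IKBIP by 0.62 and TSKU by 0.47. SESN2, the sestrin that also answers to ATF4, was 24.4, 31.3 and 26.8 CPM in scrambled cells, 16.7, 14.5 and 18.5 with siLRWD1-5 and 67.4, 60.2 and 66.6 with siLRWD1-6. Like GDF15, SESN2 fell with siLRWD1-5 (-0.73, SE 0.11, edgeR adjusted p = 0.000474) and rose with siLRWD1-6 (1.24, SE 0.11, edgeR adjusted p = 2.5e-05), with no overlap of the groups. Directly compared, 7 of the 44 were higher and 10 lower with siLRWD1-6 than with siLRWD1-5 (15.9% and 22.7%, beside 22.4% and 20.9% of all tested genes). The counts without scrambled replicate 2 were 15 higher and 6 lower with siLRWD1-5, beside 24% and 25% of all genes then tested. With siLRWD1-6 they were 9 and 5, beside 15.3% and 13.3%.

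Genes of the ATF4 stress response also differed between the groups. ATF4 is a transcription factor translated under amino acid shortage and endoplasmic reticulum stress, and several p53 targets are also known to respond to such stress. Of 8 such genes, 7 rose and 0 fell with siLRWD1-6, beside 8.81% and 7.78% of all tested genes. The 8 were listed with earlier results of these data known. Their median log2 change was 1.16 and their summed levels were 1031 to 1117 CPM, against 554 to 662 CPM in scrambled cells. VLDLR rose by 2.67 (SE 0.17, edgeR adjusted p = 3.95e-06), DDIT4 by 2.42, ASNS by 1.39 and ATF4 itself by 0.93. With siLRWD1-5 the summed level was 437 to 466 CPM, below every scrambled library. There 4 of the 8 fell and 1 rose, beside 20.3% and 18.5% of all tested genes. DDIT3, the factor CHOP, fell by 0.80 (SE 0.12, edgeR adjusted p = 0.000297), PPP1R15A and CHAC1 by 0.70 each and ATF4 by 0.45, while ASNS rose by 0.28 (edgeR adjusted p = 0.0392). Without scrambled replicate 2, 8 rose and 0 fell with siLRWD1-6, beside 15.3% and 13.3% of all genes then tested. With siLRWD1-5, 0 then rose and 4 fell, beside 24% and 25%, and ASNS was at 0.23 (edgeR adjusted p = 0.0501). The fall of PPP1R15A was then 0.42 (log2 -0.42, edgeR adjusted p = 0.00504). Whether these genes share in the changes of GDF15, FAS and MDM2 was not tested.

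The Ewing sarcoma markers also differed between the groups. They were listed with earlier results of these data known. Of the 7 tested, 6 fell with siLRWD1-5 and 0 rose, beside 20.3% and 18.5% of all tested genes. Their median log2 change was -0.53. With siLRWD1-6, 0 were called, beside 8.81% higher and 7.78% lower of all tested genes, and the median was -0.08. NR0B1 fell by 0.83 and FLI1 by 0.52 with siLRWD1-5 (edgeR adjusted p = 0.000854 and 0.000497). Without scrambled replicate 2, 6 fell and 0 rose with siLRWD1-5, beside 25% and 24% of all genes then tested. With siLRWD1-6, 2 then rose and 0 fell, beside 15.3% and 13.3%. These were NR0B1 (0.34, edgeR adjusted p = 0.0127) and FLI1 (0.30, edgeR adjusted p = 0.0044). The summed level of the markers was 2413 to 3193 CPM in scrambled cells, 1747 to 2032 with siLRWD1-5 and 2186 to 2412 with siLRWD1-6. Most of that sum was CCND1 alone, at 2081 to 2827, 1494 to 1779 and 1840 to 2079 CPM in those groups. The part of the shift in these markers in the changes of the p53 targets was not tested.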

How the data were processed

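RNA of 9 A673 libraries, 3 per siRNA group, was sequenced from TruSeq v2 libraries per the labels' protocols. The authors deposited raw read counts per gene symbol in a single table. The submitters' processing notes name the hg19 build, HTSeq 0.5.4p3, TopHat2 2.0.10 and bcl2fastq 1.8.4. Strand handling, counting mode and annotation were not given in the sources used here, so reads of overlapping genes could be counted to either gene. Total counts ranged from 11971179 to 15674452.

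From these counts, genes were filtered with filterByExpr and scaled by TMM. They were tested with the robust quasi-likelihood fit of edgeR 4.0.16 in R 4.3.3 over all 9 libraries, with group as the only term and Benjamini-Hochberg adjustment over 13648 genes. The comparisons were each siRNA against scrambled and siLRWD1-6 against siLRWD1-5. P-values rest on the spread between libraries within the groups, pooled over the 3 groups. The replicate number was not a term of this fit and was tried as a block among the alternatives. The fit was tested on simulated siLRWD1-5 and scrambled counts of 13514 genes with 200 changed. At a log2 change of 0.5 the share recovered was 47%, at 1 it was 76.4% and at 2 it was 100%, with 4.08% false calls. These shares hold for that setting only, since 38.8% of tested genes were called with siLRWD1-5 in the data.

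Same-numbered libraries had positive correlations of their deviations for siLRWD1-5 and scrambled (0.25, 0.37 and 0.11). The same held for siLRWD1-6 and scrambled (0.28, 0.24 and 0.05) and between the siRNAs (0.17, 0.23 and 0.09). Libraries of different numbers gave -0.33 to 0.14, -0.25 to 0.08 and -0.22 to 0.07 in these comparisons. The labels do not say that a number marks a shared experiment. Alternatives were RLE size factors, no scaling, other count filters, DESeq2 1.42.0, voom of limma 3.58.1, the replicate block, fewer libraries and leaving out each library.

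All 31 members could be named. Of each other list, up to 4 genes per comparison with the smallest p past the threshold could be named, others only with values. The result of 1 gene open to naming is not reported here. The members and lists were chosen with earlier results of these data known, and the tolerance of the response element search was set after seeing its matches. Levels per kb use merged exons of the GENCODE v29 basic annotation, and promoter windows come from RefSeq (GRCh38.p14), searched with Python 3.11.15. Counts over the 31 genes against scrambled, and members whose call changed, are given with and without scrambled replicate 2 because it stood apart.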

Additional observations from a re-analysis of the deposited data

How the results depend on the processing

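The siLRWD1-6 comparison depended most on the processing. Of the members, 1 was lower with siLRWD1-6 than in scrambled cells, and the count was 0 with no filter on low counts, 2 with DESeq2, 2 with the replicate block, 5 with only the libraries numbered 1 and 3, 0 with only the groups compared, and 0 to 4 when each library was left out in turn. The count higher, 7, ranged from 3 to 10 when each library was left out, with 3 without siLRWD1-6 replicate 1. The other counts stayed within 1.5 times their value in every alternative run: 8 to 13 higher and 5 to 7 lower with siLRWD1-5, and 5 to 8 higher and 6 to 11 lower with siLRWD1-6 than with siLRWD1-5. With the replicate number as a block, 10 members were higher and 7 lower with siLRWD1-5, beside 21.2% and 22.3% of all tested genes. With siLRWD1-6 they were 9 and 2, beside 10.8% and 9.84%, and between the siRNAs 6 and 10, beside 24.4% and 23.1%. In the siLRWD1-6 comparisons the block added MDM4 and GADD45A as higher and TNFRSF10A as lower against scrambled, and DDB2 as lower against siLRWD1-5. Over the 93 results of single members, 1395 values under alternatives included 1308 on the same side of the threshold, 45 that gained a call, 42 that lost one and 0 that reversed a called direction. Among values called in neither fit, 68 changed sign. In the simulated siLRWD1-5 comparison 47% of genes changed by 0.5 on the log2 scale were recovered, so a change of that size can go uncalled. The simulation changed 200 of 13514 genes, whereas 38.8% of tested genes were called with siLRWD1-5 in the data. The adjustment for many tests is stricter with fewer changed genes, so 47% is not the share recovered in the data.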
